A study of Mus musculus with 96 samples.

Results

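The transcripts of 9 chaperone genes were followed across single cells of mouse marrow labelled as erythroid precursors. The cells ran from those with little alpha globin RNA to those in which globin RNA made up most of the library. The 9 genes were taken by symbol from the 24321 symbols of the expression table, and all 9 were present. They fall into 3 compartments: Hspa8, Hsp90aa1, Hsp90ab1, Dnajb1 and Dnaja1 in the cytosol, Hspa5 in the endoplasmic reticulum, and Hspa9, Hspd1 and Hspe1 in mitochondria. Fewer of them were found in cells with more Hba-a1, the alpha globin gene used to order the cells: a median of 8 of the 9 were listed per cell in the lowest of 3 near-equal bands of Hba-a1 (the low band), 5 in the mid band and 2 in the high band, where listed means at 1 RPKM or more (a read count scaled to the length of the transcript and to 1000000 mapped reads). The number of all genes detected per cell fell in the same order, with medians of 3446, 1848.5 and 1237. By the rule given below, 70.3% of all genes tested were lower in the high than in the low band. The 9 genes differed in how many high-band cells still listed them. Hsp90aa1 was still listed in 15 of 18 cells of the high band, while its near twin Hsp90ab1 was listed in 2 of 18, and the mitochondrial Hspa9 in 0 of 18.

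The series holds 96 cells labelled as erythroid precursors from the marrow of C57BL/6 mice that are heterozygous for Rpl11 (Rpl11 +/lox), a large-subunit ribosomal protein gene. The design text names the stages as BFU-E (burst-forming progenitors) to basophilic erythroblasts. All cells had this genotype, no wild-type cell was analysed here, and neither the animals nor the driver that recombines the lox allele is given in the sources used here. The cells therefore count as 1 sample, no p-value was computed, every SD below is a spread between cells, and nothing below is an effect of the Rpl11 genotype.

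Chaperones bind unfolded or partly folded proteins and keep them from clumping until they fold, are moved or are degraded. The Hsp70 proteins (Hspa8, Hspa5 and Hspa9) work in cycles of ATP binding that are started by J proteins such as Dnajb1 and Dnaja1, the Hsp90 pair completes the folding of kinases and receptors, and the Hspd1 ring with its Hspe1 lid encloses single proteins in the mitochondrial matrix. Red cell precursors make globin in very large amounts, import iron into mitochondria for heme, and then lose their nucleus and organelles. In human erythroblasts an inducible Hsp70 is known to shield the transcription factor GATA1 from caspase cleavage, and mitochondrial Hsp70 (Hspa9) takes part in the assembly of iron-sulfur clusters.

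Upstream sequences are shown for the chaperones of the organelles, because the mitochondrial pair Hspd1 and Hspe1 is read in opposite directions from starts a short interval apart and because Hspa5 carries the textbook element of the unfolded protein response. They are from the RefSeq promoter table (GRCm38.p6, a later build than the mm9 of the expression values), which held windows for 5 of the 9 genes and had none for Hspa8, Hsp90aa1, Hsp90ab1 and Hspa9. The first is chr1:55087933-55088147 on the plus strand, the 215 bases between the start of Hspd1 on the minus strand and the start of Hspe1 on the plus strand. The table holds another start of Hspd1, which lies beyond the start of Hspe1 and whose window held none of the motifs below. The second is chr2:34771840-34772089 on the plus strand, the 250 bases before the start of Hspa5. Capitals mark, in the first, an alternating run of heat shock units (GAA and TTC, spaced by 2 bases, in a run of 3 units) and, in the second, the ER stress element (CCAAT and CCACG spaced by 9 bases).
Hspd1 and Hspe1 interval: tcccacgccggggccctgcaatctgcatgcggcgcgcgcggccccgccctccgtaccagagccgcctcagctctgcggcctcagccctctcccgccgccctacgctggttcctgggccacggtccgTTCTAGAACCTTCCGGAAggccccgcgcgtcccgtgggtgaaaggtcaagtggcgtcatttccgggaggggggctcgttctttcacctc
Hspa5 upstream: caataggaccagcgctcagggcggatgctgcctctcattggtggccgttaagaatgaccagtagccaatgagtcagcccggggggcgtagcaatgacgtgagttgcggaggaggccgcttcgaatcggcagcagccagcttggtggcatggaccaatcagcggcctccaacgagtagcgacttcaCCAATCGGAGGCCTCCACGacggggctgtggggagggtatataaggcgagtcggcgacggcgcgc

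In the first sequence 2 overlapping runs of 3 units cover 18 bases, which begin 89 bases before the start of Hspe1. On either strand, such a run was found in 0.603% of 32851 promoter windows of 300 bases, that is in 198 windows. The ER stress element before Hspa5 begins 65 bases upstream of its start, and 0.119% of windows held one. Of the other windows, 1 of Dnaja1 held a single GAA-first pair of units, as did 7.86% of all windows, and those of Dnajb1 held none of these motifs. These matches describe letters in a window and say nothing about which factor was bound in the cells.

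Of the 96 cells, 55 were kept: they had at least 1000 genes at 1 RPKM or more and did not have 50% or more of the markers of another blood lineage. A further 14 cells had them and 27 had too few genes. The kept cells were divided in order of Hba-a1 into 3 bands of 19, 18 and 18 cells, with Hba-a1 from 723 to 307302 RPKM (median 161202) in the low band, 321044 to 439819 (median 406066) in the mid band and 443162 to 570277 (median 486366) in the high band. The erythroid factor Klf1 was listed in 18 cells of each band, whereas Gata1 was listed in 18, 18 and 8 cells of the low, mid and high band. Of 10 late erythroid progenitor markers, low-band cells had 1 to 10 at 10 RPKM or more (median 9). Of 16 erythroblast markers they had 3 to 14 (median 11). The 14 cells with markers of another lineage had 0 to 2 and 3 to 5, so the ranges overlap at the lower end. Kit, which marks early progenitors, was listed in 0 of the 55 kept cells, which allows a share of up to 5.45%. This limit, like those for other counts of 0 below, is 3 divided by the number of cells. Kit is 1 of 10 early erythroid progenitor markers, and others of them were present. Per cell, up to 4, 2 and 1 of the 10 were at 10 RPKM or more in the low, mid and high band. Their summed level was 0 to 4379, 0 to 80.4 and 0 to 51.7 RPKM.

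Genes detected moved with the ordering itself. The median number of genes was 3446, 1848.5 and 1237 in the low, mid and high band, and globin genes took a median of 53.0%, 85.5% and 90.8% of each cell's summed RPKM. The estimated depth of kept cells ran from about 1530000 to 11660000 reads, with medians of about 6610000, 7420000 and 7960000 reads in the low, mid and high band, so the median depth was not lower in cells with more globin. At the median depth of kept cells, 3 reads equal between 0.0759 RPKM for Dnaja1 and 0.552 RPKM for Hspe1. A transcript lost in capture or amplification cannot be told apart from one that was absent, and less RNA of a gene cannot be told apart from a larger share of globin RNA in the library.

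**Figure D1:**
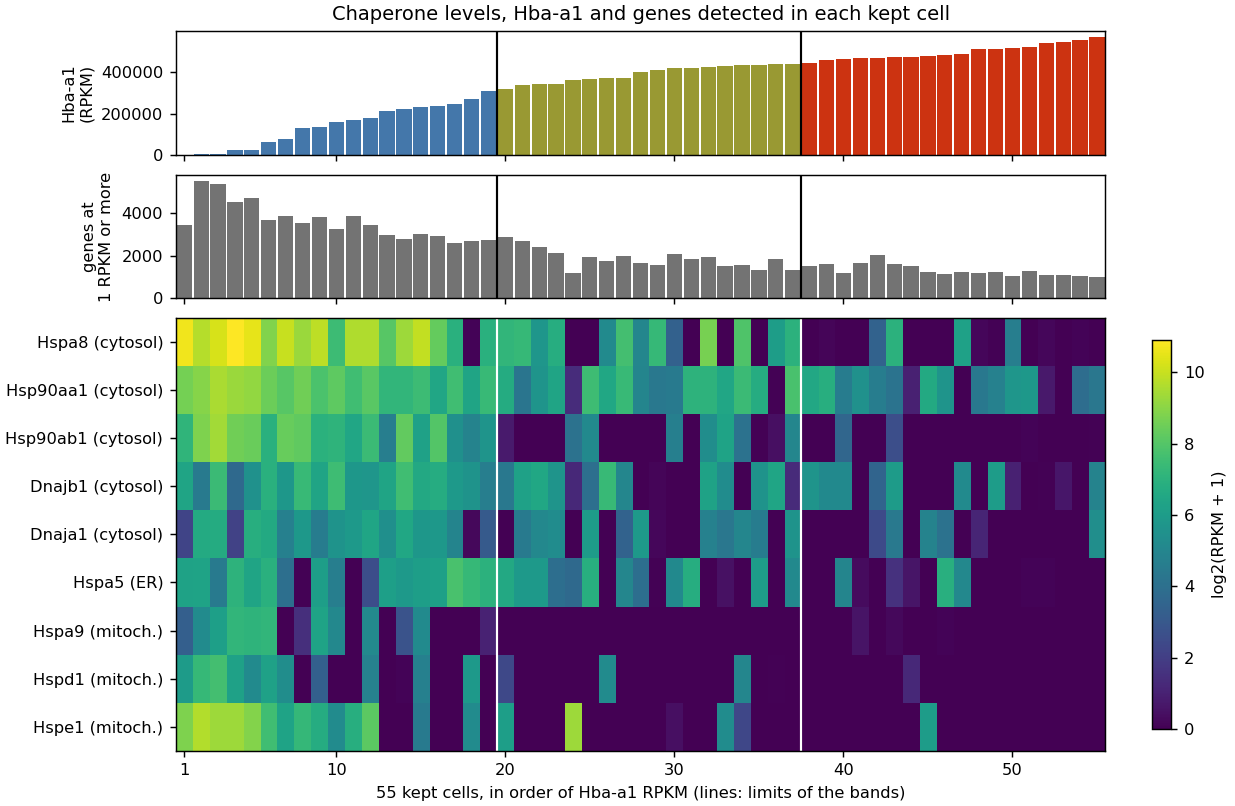
Each column is 1 of the 55 kept cells in order of Hba-a1 RPKM: the upper bars give Hba-a1 in RPKM, the middle bars the number of genes at 1 RPKM or more, and the lower panel log2(RPKM + 1) of the 9 chaperone genes, with lines at the limits of the bands. The mitochondrial genes lie mostly in the low band, Hsp90aa1 runs through to the right edge, and the number of genes falls along the same order.

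All 9 chaperone genes were lower in the high than in the low band, with differences of -7.52 to -3.24 on the log2(RPKM + 1) scale. A gene was called when its means differed by 1 or more and each of the 3 run codes in the sample descriptions had that same sign. The sample titles and the column headers carry 1 code for all 96 cells, so the split into 3 codes (52, 25 and 19 cells) rests on the descriptions alone, and what the codes stand for is not given in the sources used here. By that rule 70.3% of the 4243 genes tested were lower in the high band and 0.99% were higher, so that 9 of 9 in this direction is close to what most genes showed. The sizes stand apart more than the count: the median difference was -3.82 for the 9 genes and -2.17 for all genes tested. A gene can fall only as far as its level in the low band allows, and several of the 9 are abundant there. Between the mid and the low band all 9 genes were lower as well (60.4% of all genes were lower and 1.53% higher). Between the high and the mid band 4 of the 9 were lower, namely Hspa8, Hsp90ab1, Dnajb1 and Hspa5, where 17.3% of all genes were lower and 0.424% were higher.

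**Figure D2:**
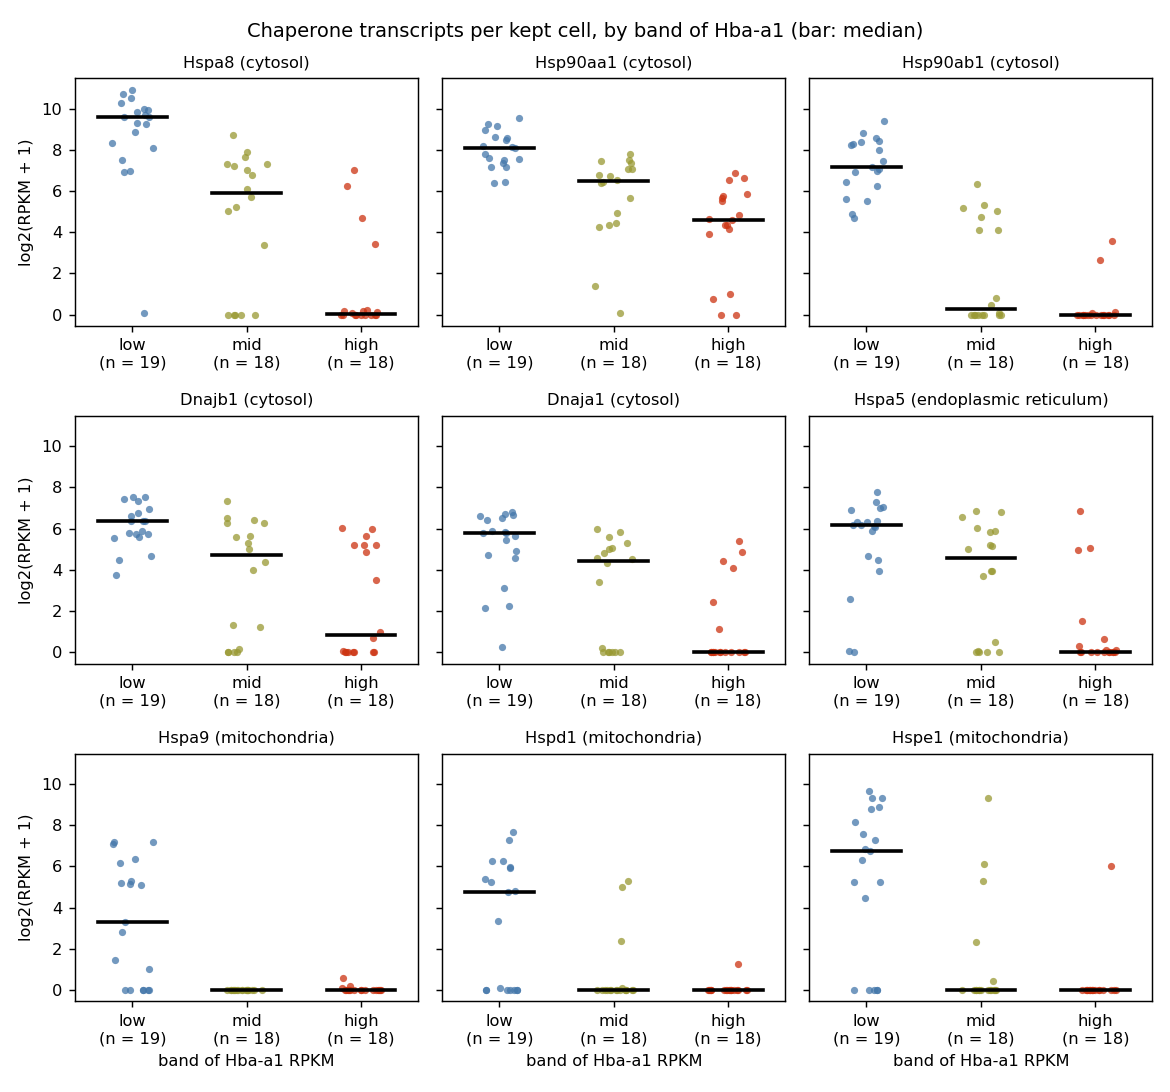
Level of each chaperone gene per kept cell, as log2(RPKM + 1), in the low, mid and high band of Hba-a1 (19, 18 and 18 cells). Each point is a cell and each bar the median. Of the genes shown, only Hsp90ab1 has high and low bands that do not overlap, and other genes were not counted for this.

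Among the cytosolic genes, Hspa8, the constitutive Hsp70, was the most abundant of the 9 in the low band and had the steepest fall. Its values ran from 0.0676 to 1930.2 RPKM (median 781) in the low band, from 0 to 413 RPKM (median 59.3) in the mid band and from 0 to 129 RPKM (median 0.0296) in the high band. A single low-band cell was near 0, and 18, 13 and 4 cells of the low, mid and high band listed the gene, so the ranges overlap through a few cells only. The mean log2 level was 1.23 ± 2.36 (SD, n = 18 cells) in the high band and 8.75 ± 2.41 (SD, n = 19 cells) in the low band, a difference of -7.52. Only 4 of the 4243 genes tested had a larger fall. Within the 3 run codes the difference was -7.67, -9.07 and -6.40, with 4, 3 and 11 high-band cells.

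Hsp90ab1, the constitutive cytosolic Hsp90, was present in every low-band cell, in some mid-band cells and in few high-band cells. It had 24.8 to 682 RPKM (median 142) in the low band, 0 to 80.6 RPKM (median 0.219) in the mid band and 0 to 11.0 RPKM (median 0) in the high band. The lowest cell of the low band thus lay above the highest cell of the high band, which no other of the 9 genes showed. How many of all genes tested showed it was not counted. It was listed in 19 of 19, 7 of 18 and 2 of 18 cells, and its mean log2 level was 0.36 ± 1.02 (SD, n = 18 cells) in the high band and 7.21 ± 1.37 (SD, n = 19 cells) in the low band. The difference of -6.86 was exceeded by 22 of the 4243 genes tested.

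Hsp90aa1, the stress-inducible cytosolic Hsp90, was listed further along the order, though its level fell too. Its values were 82.6 to 735 RPKM (median 269) in the low band, 0.0480 to 222 RPKM (median 88.4) in the mid band and 0 to 115 RPKM (median 23.3) in the high band. All 19 cells, 17 of 18 and 15 of 18 listed it, and it was the highest of the 9 genes by median in both the mid and the high band. The high band was still lower, at 4.18 ± 2.24 (SD, n = 18 cells) against 8.00 ± 0.90 (SD, n = 19 cells) in the low band, a difference of -3.81. Only 20.1% of the 4243 genes tested had a larger fall, so its level fell more than that of most genes.

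The Hsp90 pair therefore came apart along the Hba-a1 order, a contrast chosen after the values were seen. Within cells, Hsp90aa1 exceeded Hsp90ab1 by a mean of 0.79 ± 1.02 on the log2 scale in the low band (SD, n = 19 cells), 3.67 ± 3.00 in the mid band and 3.83 ± 2.42 in the high band (SD, n = 18 cells each). Of the 55 kept cells, 28 listed both genes, 23 listed Hsp90aa1 alone, 4 listed neither and 0 listed Hsp90ab1 alone, which allows a share of up to 5.45%. The scarcer gene of a pair is also the one more easily missed in a library with more globin, and the part of this in the gap was not tested. With a pseudocount of 10 RPKM the gap was 1.69 in the high and 0.72 in the low band. Of 616 genes listed in all 19 low-band cells, the median gene was listed in 12 of 18 high-band cells (quartiles 8 and 15). Hsp90aa1 was listed in 15, Dnajb1 in 8 and Hsp90ab1 in 2, and only 3 of the 616 were listed in fewer cells than Hsp90ab1.

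**Figure D3:**
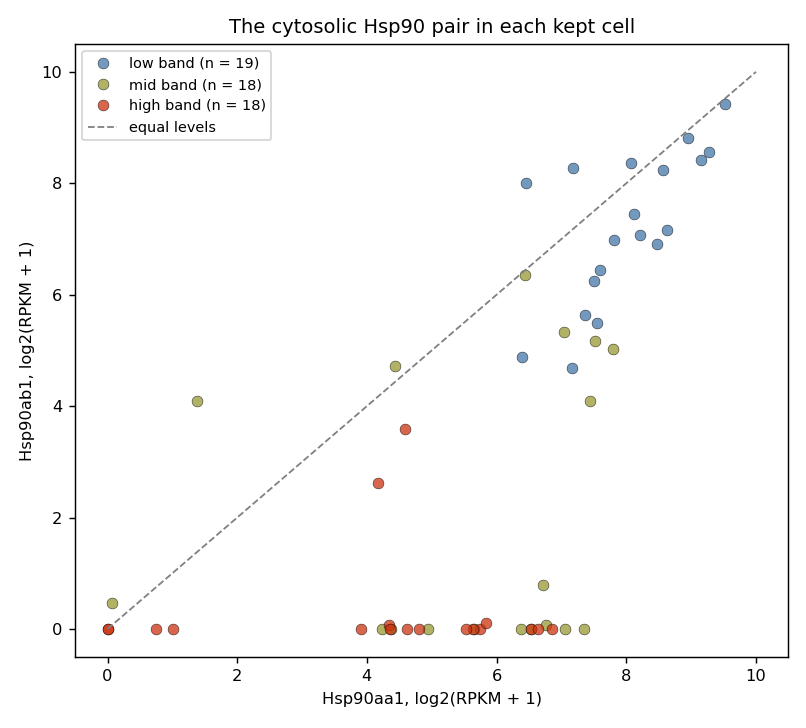
Hsp90ab1 against Hsp90aa1 in each of the 55 kept cells, both as log2(RPKM + 1), coloured by band of Hba-a1, with a dashed line of equal levels. Low-band cells lie near the line, most of them below it, and 23 of the 55 cells list Hsp90aa1 without Hsp90ab1 and lie to the right along the bottom.

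The J proteins Dnajb1 and Dnaja1, which deliver clients to cytosolic Hsp70, were less abundant than Hspa8 in the low band and fell less. Dnajb1 had 12.4 to 187 RPKM (median 81.0) in the low band, 0 to 163 RPKM (median 25.3) in the mid band and 0 to 63.7 RPKM (median 0.789) in the high band. Dnaja1 had 0.182 to 113 RPKM (median 53.6) in the low band, 0 to 63.4 RPKM (median 20.3) in the mid band and 0 to 41.3 RPKM (median 0) in the high band. For both genes some high-band cells reached into the range of the low band while most were below 1 RPKM: 8 of 18 cells listed Dnajb1 and 6 of 18 listed Dnaja1. The differences between the high and the low band were -3.72 for Dnajb1 and -3.82 for Dnaja1. Hspa8 minus Dnajb1 averaged 2.62 ± 2.61 in the low band (SD, n = 19 cells), 1.10 ± 3.96 in the mid band and -1.18 ± 2.81 in the high band (SD, n = 18 cells each). In the high band 9 of 18 cells listed neither gene and the median gap was 0. Hspa8 was higher in 6 cells there and Dnajb1 in 7. In the 25 cells with at least 2000 genes, in new bands, the mean gap was 4.00, 2.13 and 0.54 from low to high. The part of missed transcripts in these gaps was not tested.

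Hspa5 (BiP), the Hsp70 of the endoplasmic reticulum, was the single member for that compartment. It had 0 to 219 RPKM (median 70.3) in the low band, 0 to 115 RPKM (median 22.7) in the mid band and 0 to 116 RPKM (median 0) in the high band. It was listed in 17 of 19, 12 of 18 and 4 of 18 cells, and in the high band its highest cell was above the median of the low band, which held for no other of the 9 genes. The mean log2 level was 1.09 ± 2.16 (SD, n = 18 cells) in the high band and 5.34 ± 2.25 (SD, n = 19 cells) in the low band, a difference of -4.25, with -4.30, -2.43 and -5.07 within the run codes.

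The 3 mitochondrial genes were scarce outside the low band. Hspa9 had 0 to 144 RPKM (median 8.82) in the low band, was exactly 0 in all 18 mid-band cells and reached at most 0.495 RPKM in the high band. It was listed in 13 of 19, 0 of 18 and 0 of 18 cells, and each count of 0 allows a share of up to 16.7%. Hspd1, the ring subunit, was listed in 11 of 19, 3 of 18 and 1 of 18 cells, with 0 to 201 RPKM (median 26.0), 0 to 37.6 RPKM (median 0) and 0 to 1.39 RPKM (median 0) in the low, mid and high band. Hspe1, the lid, was listed in 14 of 19, 4 of 18 and 1 of 18 cells, with 0 to 806 RPKM (median 107), 0 to 645 RPKM (median 0) and 0 to 64.4 RPKM (median 0). The bands overlap for each of these genes because some low-band cells were at 0 too.

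The high-minus-low differences were -3.28 for Hspa9, -3.24 for Hspd1 and -5.13 for Hspe1. In all, 16 of 19 low-band cells (84.2%, exact 95% Clopper-Pearson interval 60.4 to 96.6%), 5 of 18 mid-band cells (27.8%, 9.69 to 53.5%) and 2 of 18 high-band cells (11.1%, 1.38 to 34.7%) listed at least 1 mitochondrial gene, and these intervals cover counting error only. Each of the 23 cells with a mitochondrial gene also listed a cytosolic one, while 30 cells listed a cytosolic gene and no mitochondrial one. As 53 of the 55 kept cells listed a cytosolic gene, nearly any cell with a mitochondrial gene would list one too. All 9 chaperone genes were listed together in 9 cells of the low band and in 0 cells of the mid and the high band. Each count of 0 allows a share of up to 16.7%, again as 3 divided by the number of cells and not as an exact interval. Hspd1 and Hspe1, which share the interval printed above, correlated at a Spearman rho of 0.64 over the 55 kept cells, and 13 cells listed both, 6 listed Hspe1 alone and 2 listed Hspd1 alone. RefSeq names 23 pseudogenes of Hspd1 and 7 of Hspe1, so the values of both are uncertain where reads could be shared.

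Inside the low band most of the 9 genes were higher at its lower end. Split at 100000 RPKM of Hba-a1, a limit chosen after the values were seen, the low band held 12 cells above the limit and 7 below it. Hspd1 was listed in 4 of 12 cells above and 7 of 7 below, Hspa9 in 7 of 12 and 6 of 7, and Hspe1 in 7 of 12 and 7 of 7. The cytosolic genes with the highest levels were also lower above the limit: the median was 464 RPKM above and 1223 RPKM below for Hspa8, 183 and 493 RPKM for Hsp90aa1, and 106 and 343 RPKM for Hsp90ab1. Dnajb1 alone had the higher mean above the limit, by less than the spread between cells, with a mean log2 level of 6.35 ± 0.87 (SD, n = 12 cells) above the limit and 5.75 ± 1.32 (SD, n = 7 cells) below it. The median number of genes was 2993.5 above and 4490 below the limit, and its part in these differences was not tested.

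Because the number of genes moved with the order, the same comparison was made in the 25 kept cells with at least 2000 genes, in new bands of 9, 8 and 8 cells with a median of 3870, 2994 and 2543 genes. No run code had 3 cells in both outer bands there, so calls rest on size alone. Of the 9 genes, 8 were lower in the high band, where 68.6% of 3443 genes tested were lower and 5.05% were higher. The difference was -6.74 for Hspe1, -6.09 for Hsp90ab1, -4.89 for Hspa8, -4.76 for Hspa9 and -4.23 for Hspd1, beside a median of -1.78 over all genes tested. In the 55 kept cells Hspa9 and Hspd1 had the smallest differences of the 9 genes. Only 5 of the 3443 genes had a larger fall than Hspe1. Hsp90aa1 differed by -2.99, Dnaja1 by -2.56 and Dnajb1 by -1.42.

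Hspa5 was the exception in these gene-rich cells. It had a median of 78.2, 64.0 and 57.7 RPKM in the low, mid and high band, was listed in 8 of 9, 7 of 8 and 7 of 8 cells, and differed between the high and the low band by -0.067. Its mean log2 level was 5.22 ± 2.37 (SD, n = 8 cells) in the high band and 5.29 ± 2.22 (SD, n = 9 cells) in the low band. The new high band had 270948 to 469528 RPKM of Hba-a1, below most cells of the high band of all kept cells. The new low band also lay lower, at 723 to 136054 RPKM. The medians of the new low and high band were 23736 and 341366 RPKM, against 161202 and 486366 RPKM in all kept cells. The comparison thus covers a different and lower stretch of the order. With the limits of the original bands held, the difference of Hspa5 was -5.34, but only 1 high-band cell had 2000 genes.

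**Figure D4:**
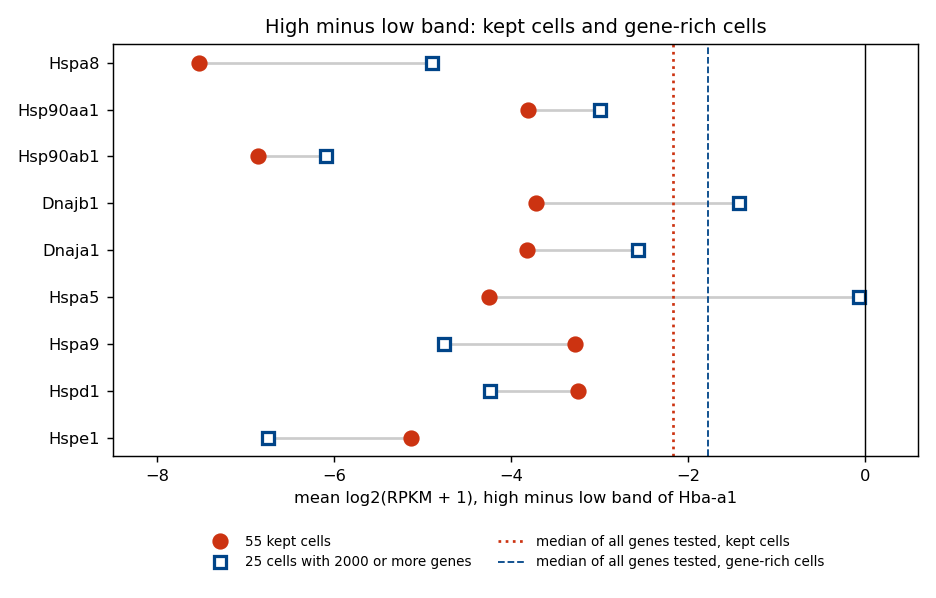
High minus low band of Hba-a1 in mean log2(RPKM + 1) for each chaperone gene, in the 55 kept cells (filled circles) and in the 25 cells with 2000 or more genes (open squares), with vertical lines at the median of all genes tested in each set. All 9 genes lie left of the line of the 55 kept cells, and 7 (all but Dnajb1 and Hspa5) lie left of the line of the gene-rich cells, where Hspa5 lies at -0.067 against -4.25 in the kept cells.

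Over the 55 kept cells, Spearman's rho with Hba-a1 was negative for each of the 9 genes, from -0.78 for Hsp90aa1, Hspa8 and Hsp90ab1 to -0.59 for Hspa5, beside -0.94 for the number of genes detected. Over the 25 gene-rich cells it was -0.94 for Hsp90aa1, -0.87 for Hspa8, -0.85 for Hsp90ab1, -0.83 for Hspe1, -0.73 for Hspa9, -0.71 for Hspd1, -0.48 for Dnaja1, -0.29 for Dnajb1 and -0.14 for Hspa5, with -0.92 for genes detected. With the number of genes detected, rho over the 55 kept cells was positive for each of the 9 genes, from 0.51 for Hspa5 to 0.81 for Hspa8. These are descriptions over cells of 1 sample that share chemistry and depth range. Among the 36 pairs of the 9 genes, rho over kept cells ran from 0.18 (Dnajb1 with Hspa5) to 0.74 (the Hsp90 pair), with a median of 0.52. Pairs across compartments could be as close as pairs within one, such as Hsp90ab1 with Hspe1 at 0.69.

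For 1 gene per compartment, the most similar genes were taken among those listed in at least 50% of kept cells. Hspa8 was closest to Dut (dUTPase, rho 0.83), Rpl30 (0.81), the predicted gene Gm12191 (0.81), Sdhb (a subunit of respiratory complex II, 0.80) and the predicted gene Gm6981 (0.80), where the median over 1442 genes was 0.48. Hspd1 was closest to Cct7, a subunit of the cytosolic chaperonin TRiC (0.69), followed by Rplp0 (0.69), Eef1a1 (0.68), Hnrnpk (0.68) and Rpl7 (0.67), against a median of 0.35. Hspa5 had weaker partners, with Spcs2, a subunit of the signal peptidase of the endoplasmic reticulum, first (0.56) and then Lpcat3, Phf10, 1600012H06Rik and Eif1 (each 0.54), against a median of 0.29. Beside these values, rho with the number of genes detected was 0.81 for Hspa8, 0.59 for Hspd1 and 0.51 for Hspa5. The part of genes detected in these likenesses was not tested.

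Partner chaperones were read from 8 lists of 119 genes, of which 76 were tested, 60 were lower in the high band and 0 were higher. These counts, and those of each list below, stand beside the 70.3% of all genes tested that were lower. The list medians stand beside the -2.17 of all genes. All 12 Hsp90 co-chaperones tested were lower, with a median difference of -3.21. The 3 with the largest changes were Ahsa1, which activates the Hsp90 ATPase (-4.88), Nudc (-4.46) and Stub1, a ubiquitin ligase that receives chaperone clients (-4.28). Ahsa1 was listed in 2 of 18 high-band cells and 17 of 19 low-band cells.

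Of the 14 genes of TRiC and its helper prefoldin, 13 were lower, with a median of -4.89. Cct5 (-5.82), Cct4 (-5.66) and Cct8 (-5.63), all ring subunits, led them, and Cct8 had a median of 0.104 RPKM in the high band against 268 RPKM in the low band. Pfdn2 was not called, at -0.62. Among chaperones of nascent chains 4 of 5 tested were lower, with a median of -4.56. Naca (-6.35) and Btf3 (-5.96) form the complex that meets new chains at the ribosome, and Hspa14 (-4.56) is a ribosome-bound Hsp70.

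In the endoplasmic reticulum 14 of 16 genes tested were lower, with a median of -2.40, close to that of all genes. Erp29 (-4.27) and the disulfide isomerase Pdia3 (-3.70) were called, while Ppib, a prolyl isomerase, differed by -3.34 without the same direction in each run code and was still listed in 10 of 18 high-band cells. In mitochondria 8 of 12 tested were lower, close to the 70.3% of all genes tested, with a median of -2.52 beside -2.17 for all genes. Timm13, a carrier of the intermembrane space (-4.85), the protease Clpp (-4.15) and Grpel1, the nucleotide exchange factor of Hspa9 (-4.00), had the largest falls. Hscb, the J protein that works with Hspa9 on iron-sulfur clusters, differed by 0.26 and was not called.

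Of the cytosolic J proteins and exchange factors 8 of 14 tested were lower, beside 70.3% of all genes tested. Their median was -2.05, beside -2.17 for all genes. The leading genes were Dnajc9, a J protein that also handles histones (-5.37), Dnajc8, a J protein of the spliceosome (-4.69), and Dnaja2, a close relative of Dnaja1 (-3.11). Of the list of inducible Hsp70 and small heat shock proteins, 2 of 11 genes passed the filter of 10 kept cells, and of these Hspa14 was lower. Hspa14 is not known as a heat-inducible gene. The inducible Hspa1a and Hspa1b were listed in 0 of the 55 kept cells, with highest values of 0.998 and 0.732 RPKM. Of 13 regulators 2 were tested, and Hsbp1, which binds heat shock factor trimers, was lower (-4.02), while Hsf1, the main heat shock factor, was listed in 7 of 55 kept cells, all in the low band.

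**Figure D5:**
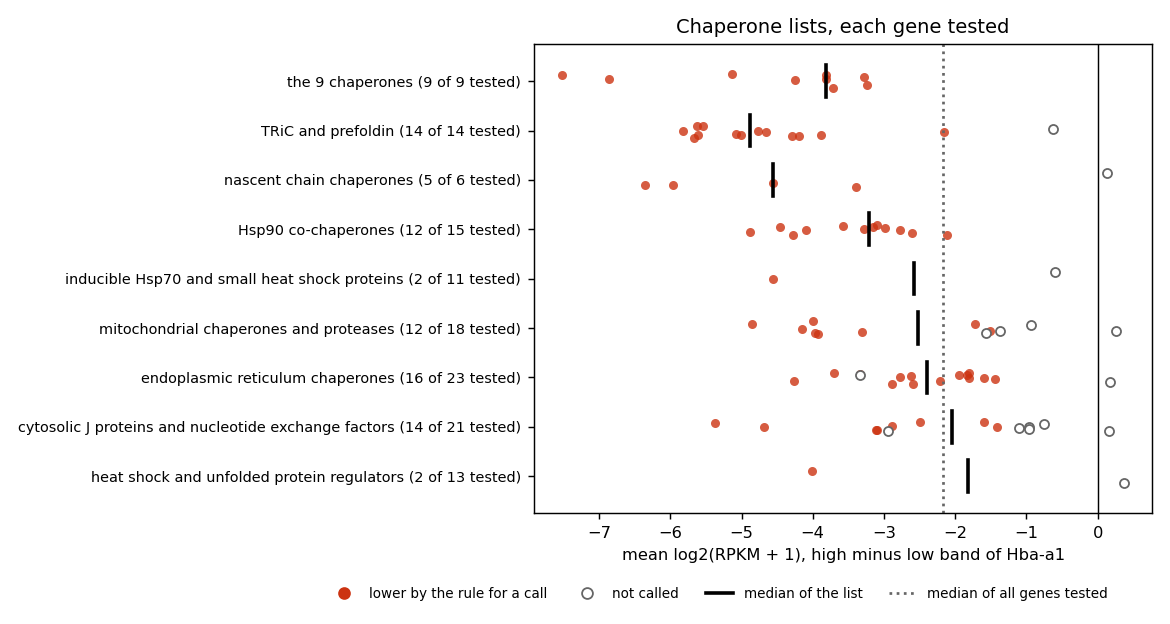
High minus low band of Hba-a1 in mean log2(RPKM + 1) for each gene tested of the 9 chaperones and of 8 chaperone lists; filled points were called lower, open points were not called, thick bars are list medians and the dotted line is the median of all genes tested (-2.17). The lists of TRiC with prefoldin and of nascent chain chaperones lie furthest left, at medians of -4.89 and -4.56.

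Markers of other blood cells were found in some kept cells. The summed level of 10 monocyte or macrophage markers was 0 to 440 RPKM in the low, 0 to 128 in the mid and 0 to 14.5 RPKM in the high band, and that of 10 neutrophil markers 0 to 132, 0 to 12.9 and 0 to 0.783 RPKM. For 7 megakaryocyte markers the sum was 0 to 93.5, 0 to 200.1 and 0 to 42.8 RPKM, and for 7 markers of stem or multipotent cells 0 to 149, 0 to 8.98 and 0 RPKM. Elane, Csf1r and Irf8 were listed in 0 of the 55 kept cells, but Mpo was listed in 1 low-band cell (28.0 RPKM) and 1 mid-band cell (1.62 RPKM). Plac8 was listed in 2 low-band cells, at up to 3843 RPKM. It stands on the list of early erythroid progenitor markers used here and on no list of another lineage. Without the 1 kept cell that had 2 or more monocyte or neutrophil markers at 10 RPKM, all 9 chaperone genes were again lower in the high band, with a median of -3.97, where 71.6% of all genes were lower with a median of -2.21. The part of other cells with such markers in the differences was not tested.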

How the data were processed

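The deposited values are RPKM per transcript, made by the authors (34899 transcript entries). Per the submitters' processing notes, TopHat2 2.0.9 and build mm9 were used. The read counter is not given in the sources used here. Per the labels' protocols, cells were captured on the Fluidigm C1, with SMART-Seq amplification and Nextera XT libraries.

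A gene took, in each cell, its highest transcript. The deposited RPKM were put on a log2(RPKM + 1) scale, on which low genes differ by less than their true fold, with Python 3.11.15 and pandas 2.3.3. A gene was tested when 10 or more kept cells listed it. A cell was set aside as another lineage with at least 3, and at least 50%, of a list's markers at 10 RPKM or more. Run codes counted in a call with at least 3 cells in both bands. Depth was estimated from the steps between low values, with transcript lengths for 97.6% of entries, and the steps were whole within 0.06 for at least 57.0% of low values in each cell (median over kept cells 62.9%), so depths are rough. In 20 simulated sets the estimate returned the depth that was set (median ratio 1). These sets held whole reads made with the same transcript lengths, so they cannot show how the estimate does where steps are not whole. No doublet caller was run on 96 cells. No 2 cells had identical values. Other alternatives were the scaling, the filters, the limits of Hba-a1 and the run codes.

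The 9 genes and all lists were chosen with earlier results of these data known. The text names the 9 genes, up to 3 genes of each other list with the largest difference among genes listed in at least 50% of high- or low-band cells, and the 5 genes most like Hspa8, Hspa5 and Hspd1. Pfdn2, Hscb, Hspa1a, Hspa1b and Hsf1 were named after their values were seen.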

Additional observations from a re-analysis of the deposited data

Results flagged for a closer look

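Cells outside the comparisons also held chaperone transcripts. Hspa8 was listed in all 14 cells set aside for markers of another lineage, with 115 to 1677 RPKM and a median of 1088 RPKM. Hsp90aa1 was listed in 14 of the 27 cells with fewer than 1000 genes, with 0 to 1314 RPKM and a median of 1.67 RPKM, whereas Dnajb1 was listed in 0 of these 27 cells. These are values of cells that the comparisons left out, chosen after seeing the data, and no control cells are in the series.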

How the results depend on the processing

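The 9 genes were recomputed under 25 alternatives, 3 of them chosen after seeing the data (2000 genes with the main limits held, which left 1 high-band cell and is a value with no spread, cells with 2 or more myeloid markers left out, cells under 3000000 reads left out). None of the 9 was called higher under any of them, 6 to 9 were called lower, and their median difference ran from -5.93 to -1.81. Directions and sizes past 1 held under each of these for Hspa8, Hsp90ab1, Dnaja1 and Hspe1, under the 24 that gave a value for Hspd1 and the 22 that gave one for Hspa9. Too few cells listed both genes without the run code SCP-1706080, nor Hspa9 without SCP-170608 or at 10 RPKM. With no gene minimum, 6 were called lower, and the difference was -0.99 for Hsp90aa1, -0.73 for Dnajb1 and -0.91 for Hspa5. Medians there were -0.87 for all genes, -0.88 for inducible Hsp70 and small heat shock proteins, -0.50 for J proteins, -0.84 for the endoplasmic reticulum, -0.58 for mitochondria and 0.27 for regulators, and rho with Hba-a1 was -0.44 (Hspa8), -0.25 (Hsp90aa1), -0.13 (Dnajb1), -0.31 (Dnaja1), -0.13 (Hspa5), -0.43 (Hspa9), -0.36 (Hspd1) and -0.48 (Hspe1). With 500 genes the regulators' median was 0.16, and rho was -0.45 (Hsp90aa1), -0.36 (Dnajb1), -0.37 (Hspa5) and -0.49 (Hspd1). With 2000 genes Hspa5 differed by -0.067, and rho was -0.48 (Dnaja1), -0.29 (Dnajb1) and -0.14 (Hspa5). With globin removed and the rest rescaled, rho was -0.46 (Dnaja1), -0.38 (Dnajb1) and -0.46 (Hspa5). With a pseudocount of 10 the medians were -0.95 for all genes, -0.95 for J proteins and -0.88 for regulators. With limits of 10000 and 100000 RPKM the median of the inducible list was -0.91. Within single run codes, rho was -0.43 for Dnajb1 and -0.34 for Hspa9 in the first, and -0.45 for Dnajb1, -0.31 for Hspa5 and -0.49 for Hspd1 in the second, where the inducible list's median was 0.23. In the remaining run code the regulators' median was -0.99, and without it rho was -0.49 (Dnajb1) and -0.47 (Hspa5). With other lineages kept in, rho was -0.26 for Dnajb1. The cause of these changes was not tested, and the inducible and regulator medians rest on 2 genes each in the main comparison. Rescaling each cell to 1000000 RPKM shifted the median of all genes by -0.22. The share of genes called lower was 36.3% with no gene minimum and 46.7% with a pseudocount of 10. Hsp90aa1 exceeded Hsp90ab1 by 1.69 to 6.27 in the high band and by 0.07 to 1.98 in the low band over these alternatives. No kept cell had fewer than 3 markers of both erythroid lists, so no cell was left out on that ground. The 14 cells set aside as another lineage also had 3 to 5 of the 16 erythroblast markers. This limit therefore cannot tell erythroid cells from others. No paired analysis was possible because all cells share 1 group.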
